A study of Homo sapiens with 6 samples.

Results

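Antigen presentation genes were examined in 2 human colorectal cancer cell populations. SW480 is the parental line, and M5 is a subpopulation obtained from SW480 by selecting cells in an animal for spread to the liver. The list holds 31 genes, taken by name, of the 19775 genes that the platform annotation gives as the sole symbol of a probe set, the group of short probes that reports 1 signal. They are covered by 86 of 54613 non-control probe sets. Each population has 3 arrays described as biological replicates, grown in the same serum-supplemented medium with antibiotics, and the labels give no drug or cytokine for either. The labels do not say how many rounds of selection were run, whether M5 grew from a single clone, or whether replicates came from separate cultures, so p-values measure only the spread between these arrays, which may be technical.

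Cells show their protein content to T cells on HLA molecules. Class I molecules are a heavy chain (HLA-B, HLA-C, HLA-E, HLA-F or HLA-G here) bound to beta-2 microglobulin (B2M). Their peptides are cut by the proteasome, in which PSMB8, PSMB9 and PSMB10 are the immune-type catalytic subunits, carried into the endoplasmic reticulum by the transporter TAP1-TAP2, trimmed by the peptidases ERAP1 and ERAP2, and loaded with the help of tapasin (TAPBP), its relative TAPBPL and the chaperones CALR, CANX and PDIA3. Class II molecules (HLA-DR, HLA-DP and HLA-DQ) are assembled with the invariant chain CD74 and loaded in endosomes with HLA-DM, which HLA-DO restrains. They are typical of professional antigen-presenting cells and appear on epithelial cells mainly after interferon-gamma. NLRC5 is the transactivator of class I genes and CIITA that of class II genes, and both act through a promoter complex that contains RFX5.

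The promoters of the class I chains and their partners are shown because they carry boxes that this complex and interferon-activated factors read. RefSeq's promoter table (GRCh38.p14) held 26 of the 31 members, all but HLA-E, HLA-DRA, PDIA3, NLRC5 and CIITA. A set of 4 motifs was searched on both strands in the 250 bases before each start: ATTGG, the inverted CCAAT or Y box (in 32% of all 35116 starts), TGACG, the core of the X2 box (21.2%), the interferon-stimulated response element, GAAA and again GAAA after any 2 bases (3.02%), and a form of the NF-kB site, GGGA followed by any base, T, any base and CCC (1.21%). Both strands were searched, so a match to the first motif can read ATTGG or CCAAT on the gene's strand. At least 1 start matched in 19, 12, 8 and 1 of the 26 members, in that order, while the percentages count each start once. The last 180 bases before the start are given, 5′ to 3′ on the gene's strand, with matches in capitals. These are reference sequences and not those of the alleles of SW480.
HLA-B: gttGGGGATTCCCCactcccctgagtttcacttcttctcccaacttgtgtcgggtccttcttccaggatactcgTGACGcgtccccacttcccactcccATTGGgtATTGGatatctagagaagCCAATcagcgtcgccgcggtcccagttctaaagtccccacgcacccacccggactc
HLA-C: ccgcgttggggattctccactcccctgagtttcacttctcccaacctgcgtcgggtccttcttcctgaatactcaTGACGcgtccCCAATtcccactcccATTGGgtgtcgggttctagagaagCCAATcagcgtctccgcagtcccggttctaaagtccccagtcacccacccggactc
HLA-F: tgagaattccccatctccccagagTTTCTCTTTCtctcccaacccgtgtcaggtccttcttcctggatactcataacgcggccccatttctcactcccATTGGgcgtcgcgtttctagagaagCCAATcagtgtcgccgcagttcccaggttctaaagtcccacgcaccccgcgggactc
HLA-G: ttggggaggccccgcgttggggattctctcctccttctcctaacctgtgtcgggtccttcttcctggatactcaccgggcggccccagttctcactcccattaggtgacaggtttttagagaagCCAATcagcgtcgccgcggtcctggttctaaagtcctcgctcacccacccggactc
B2M: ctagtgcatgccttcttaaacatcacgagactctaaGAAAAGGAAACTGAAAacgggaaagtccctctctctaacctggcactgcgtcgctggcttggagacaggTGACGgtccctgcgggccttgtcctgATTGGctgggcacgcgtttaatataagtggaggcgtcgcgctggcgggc
TAP1: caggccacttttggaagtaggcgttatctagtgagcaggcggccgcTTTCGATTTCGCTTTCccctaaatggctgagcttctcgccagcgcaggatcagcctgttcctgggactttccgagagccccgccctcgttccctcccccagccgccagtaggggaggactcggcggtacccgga
The stretches lie at chr6:31357180-31357359 (minus strand), chr6:31272093-31272272 (minus), chr6:29723254-29723433 (plus), chr6:29827645-29827824 (plus, the most downstream of 3 starts), chr15:44711337-44711516 (plus) and chr6:32853705-32853884 (minus, the most upstream of 2 starts of that gene). HLA-B held 3 matches to the first motif, 1 TGACG and 2 overlapping NF-kB matches, and HLA-C 3 to the first motif and 1 TGACG. HLA-F held 2 to the first motif and 1 response element, and HLA-G 1 to the first motif. HLA-B, HLA-C and HLA-F had both ATTGG and CCAAT, while the HLA-G match read CCAAT, with no ATTGG in the stretch shown. B2M held 1 ATTGG, 1 TGACG and 2 overlapping response elements, and TAP1 2 overlapping response elements. A match is a description of these letters and not a bound site.

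The arrays differed in overall brightness. The 2% trimmed mean of the deposited signals was 20.95 on SW480 replicate 1 and 26.98 on M5 replicate 1, and 53.41 to 86.41 on the other 4 arrays, so the 2 replicate 1 arrays are called the dimmer pair and the others the brighter arrays. M5 replicates 2 and 3 correlated at r = 0.993 over the brightest 20% of tested probe sets, against 0.891 to 0.958 for the other pairs of arrays, so they may not be independent samples, and counts with both averaged stand beside each call. A control for 18S ribosomal RNA had deposited signals of 1783 to 1913 on M5 replicate 1 and SW480 replicates 1 and 2, against 90.03 to 280.8 elsewhere. EPCAM, which marks epithelial cells, had normalised signals of 2559, 2176 and 2446 on the SW480 arrays and 2923, 2408 and 2239.5 on the M5 arrays. The intestinal factor CDX2 fell below the filter on low signals, as did 2 further epithelial markers of 11. Among leukocyte markers, PTPRC (at most 11.3 on any array) and CD14 (at most 6.17) fell below the filter, while 9 of the 13 measured lay above it, with a median log2 fold change of 0.40 and 0 called in limma. LYZ read 73.5, 1.22 and 23.5 on SW480 and 63.9, 147 and 161 on M5, and CD86 1.8, 8.63 and 0.617 on SW480 and 22.4, 17.4 and 9.4 on M5, with unadjusted p of 0.012 and 0.0171 in limma, both named after their values were seen. Signals summed over the 13 of 14 leukocyte markers measured were 82.61 to 191.8 on the SW480 arrays and 160.5 to 294.2 on the M5 arrays. These ranges overlap, and LYZ was the largest single part of the sum on each M5 array. The part of leukocyte markers in the class II values below was not tested. In such bulk RNA, fewer cells of a type and less RNA per cell cannot be told apart.

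No antigen presentation gene passed the test between M5 and SW480. Signals were quantile normalised and tested as log2(signal + 1.7), and fold changes on this scale understate differences of low signals. Of the 86 probe sets, 62 lay above the filter, which left out the dimmest 40% of probe sets by mean signal, and these stand for 28 of the 31 genes. Of the 62, 0 were higher and 0 lower in M5 at a limma adjusted p under 0.05, where the same fit called 0.0397% of 32768 probe sets higher and 0.0336% lower. The smallest adjusted p of a member in limma was 0.388. At an unadjusted p under 0.05, 1 member probe set lay higher and 3 lower in limma, against 4.82% and 5.44% of all probe sets. The count was also 0 in each direction without limma's intensity trend. That fit called 0 of all tested probe sets higher and 1 lower, so its 0 members say little. The arrays of the 2 populations did not overlap on 3 member probe sets with M5 above and 2 with M5 below, where this was so for 7.23% and 7.89% of all tested probe sets. The 62 log2 fold changes had a median of -0.021, against -0.01 over all tested probe sets, and ran from -1.83 to 1.08. Of these, 28 were above 0 and 34 below. Their standard errors (SE) had a median of 0.351, and a p that misses the threshold does not show that the populations had the same level.

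**Figure D1:**
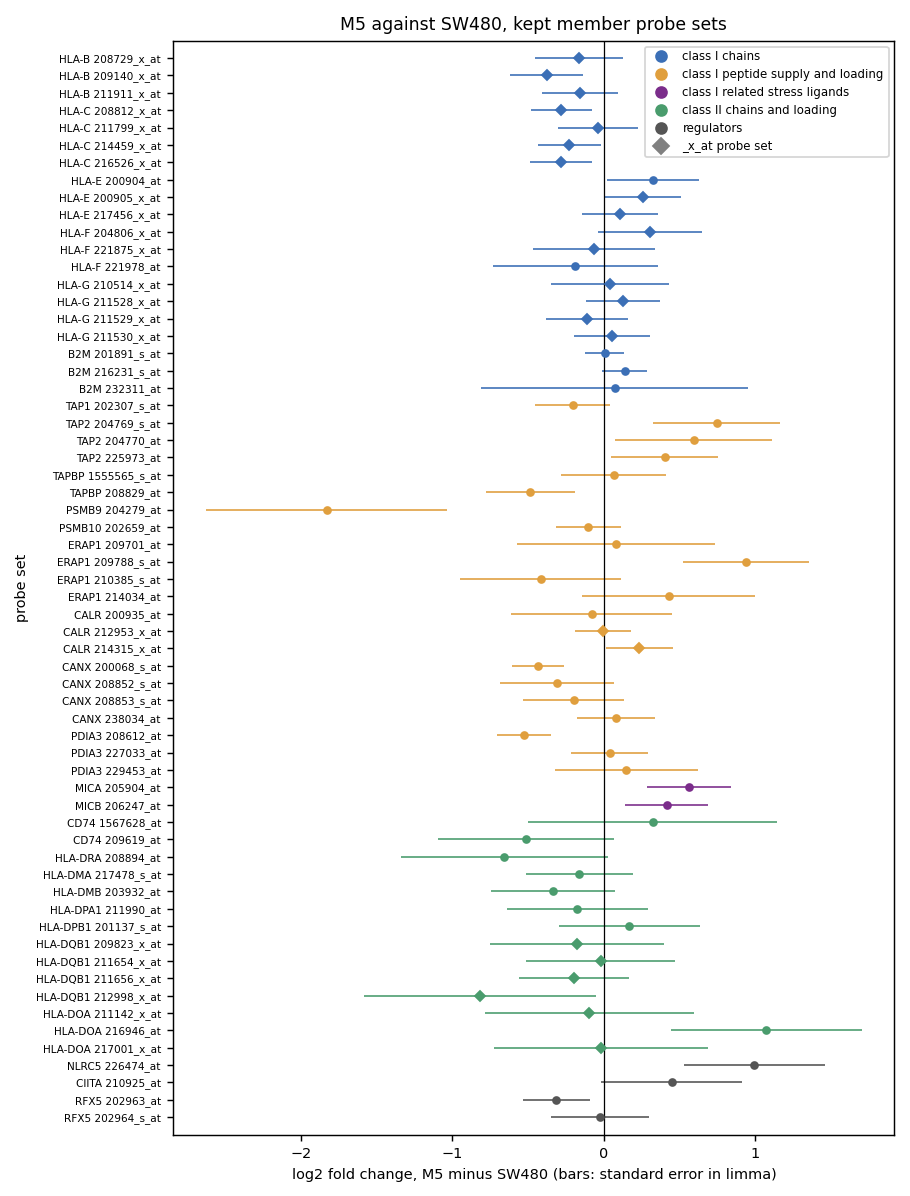
Log2 fold change of M5 against SW480 (horizontal axis) for the 62 member probe sets above the filter, with points as estimates from 3 arrays per population and bars as the standard error in limma. Estimates lie on both sides of 0, from -1.83 for PSMB9 to 1.08 for an HLA-DOA probe set, and none passed the threshold.

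The class I heavy chains had 17 probe sets, all above the filter, and 15 of them bear the array maker's mark _x_at, which says that their probes can bind similar sequences of other genes. HLA-B and HLA-C present peptides to cytotoxic T cells. The HLA-B probe set with the highest mean read 2066, 1536 and 1064 on SW480 replicates 1, 2 and 3 and 911, 1234 and 1372 on M5 replicates 1, 2 and 3. The highest value was on SW480 replicate 1 and the lowest on M5 replicate 1, and the populations overlapped. Its log2 fold change was -0.38 (SE 0.24, adjusted p = 0.628 in limma). The other 2 HLA-B probe sets had log2 fold changes of -0.16 and -0.16. HLA-C read 3326, 3286 and 2679 on the SW480 arrays and 1779, 2975 and 3100.1 on the M5 arrays. Only M5 replicate 1 lay clearly below the rest. The log2 fold change was -0.28 (SE 0.20, adjusted p = 0.683 in limma), and those of the other 3 HLA-C probe sets ranged from -0.28 to -0.036. All 7 HLA-B and HLA-C probe sets are marked _x_at, so which gene they measured is uncertain.

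HLA-E is a ligand of inhibitory receptors on natural killer cells. It has 1 of the 2 class I heavy chain probe sets without the mark. That probe set (200904_at) read 134, 154 and 189 on SW480 and 122, 259.9 and 243 on M5. M5 replicates 2 and 3 lay above every SW480 array and M5 replicate 1 below every one of them. Its log2 fold change was 0.33 (SE 0.30, adjusted p = 0.757 in limma). The marked HLA-E probe set with the highest mean read 780.1, 739.9 and 763 on SW480 and 570.4, 1089 and 1217 on M5, with the same order of the M5 arrays around SW480, and its log2 fold change was 0.26 (SE 0.25, adjusted p = 0.77 in limma). All 3 HLA-E probe sets had estimates above 0, the remaining estimate being 0.11.

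HLA-F and HLA-G are class I chains of narrower expression. HLA-F (221875_x_at) read 1626, 496 and 458 on SW480 and 883, 568 and 648 on M5. SW480 replicate 1 stood far above the other SW480 arrays, and the log2 fold change was -0.062 (SE 0.40, adjusted p = 0.975 in limma). A further marked HLA-F probe set (204806_x_at) read 1044, 354 and 378 on SW480 and 669, 669.7 and 591 on M5, with SW480 replicate 1 again the highest and M5 between it and the other SW480 arrays. The unmarked HLA-F probe set (221978_at) read at most 10.7 on any array and had a log2 fold change of -0.19 (SE 0.55), too imprecise to set against the marked probe sets. HLA-G (211528_x_at) read 1170.2, 645 and 619 on SW480 and 719.9, 899 and 945 on M5, with a log2 fold change of 0.13 (SE 0.24, adjusted p = 0.893 in limma). All 4 HLA-G probe sets carry the mark, and their estimates ran from -0.11 to 0.13.

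B2M is the light chain shared by all class I molecules. Its probe set 216231_s_at read 6059, 4533 and 5609 on SW480 and 5031, 6511 and 6321 on M5, and 201891_s_at read 5430, 5185 and 6013 on SW480 and 4936, 6264 and 5560 on M5. The populations overlapped on both, and the log2 fold changes were 0.14 (SE 0.15, adjusted p = 0.79 in limma) and 0.0074 (SE 0.13). The remaining B2M probe set read between 0.667 and 16.0 with no order by population.

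**Figure D2:**
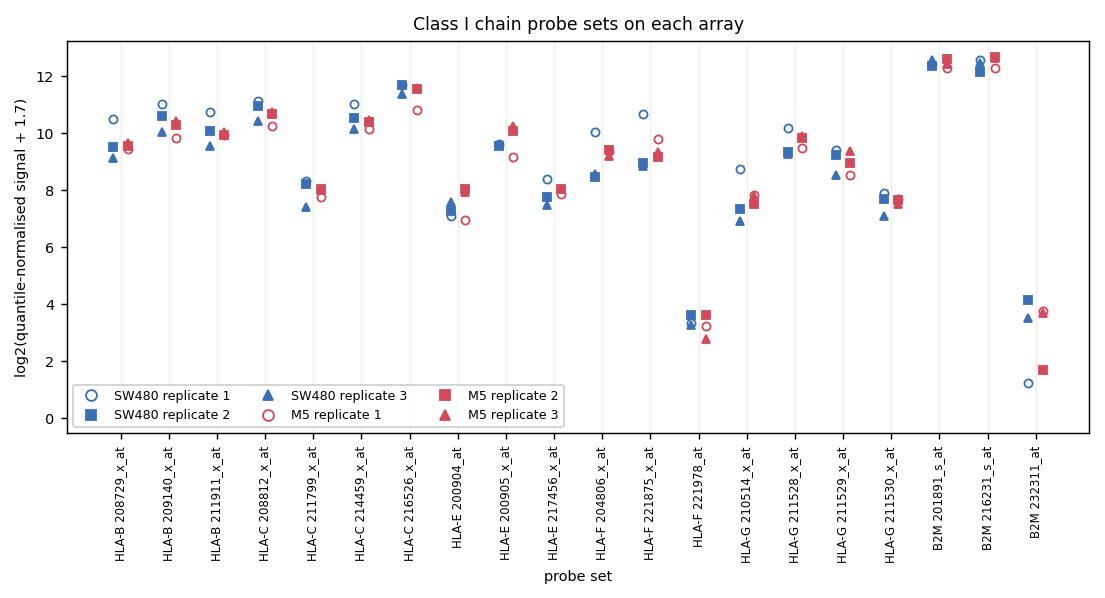
Log2(quantile-normalised signal + 1.7) of the 20 class I chain probe sets (horizontal axis) on each of the 6 arrays, blue for SW480, red for M5, open circles for the replicate 1 arrays. On 14 of the 15 marked HLA probe sets SW480 replicate 1 is the highest array, and both populations overlap on all 20.

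SW480 replicate 1 stood highest on most of the marked class I probe sets. It was the highest of the 6 arrays on 14 of the 15 _x_at class I probe sets, where it was the highest on 20.5% of all tested probe sets. In the dimmer pair, M5 lay below SW480 on 15 of 15, with a median log2 difference of -0.86 (range -1.18 to -0.22). On the brighter arrays M5 lay above SW480 on 15 of 15, with a median of 0.28 (range 0.03 to 0.78). Over all 3032 tested _x_at probe sets the medians were -0.006 in the dimmer pair and 0.103 on the brighter arrays, and over all tested probe sets 0.009 and 0.001. M5 lay below SW480 in the dimmer pair on 49.3% of all tested probe sets, and above it on the brighter arrays on 50%. With the arrays split by the 18S control, the median difference of the 15 was -0.48 among the 3 arrays high for it and 0.50 among the 3 low. This split differs from that by brightness only in the side of SW480 replicate 2, so it is not a separate check. With arrays centred on the median, 14 of 15 lay lower in the dimmer pair and 14 of 15 higher on the brighter arrays. The shares of all tested probe sets were then 41% and 42.1%. With no scaling the counts were 14 and 15, against 31.9% and 47.4% of all tested probe sets, whose medians were 0.302 and -0.043. Over the 6 arrays, the log2 signals of pairs of these 15 probe sets correlated with a median r of 0.72 (105 pairs), against -0.02 among the 42 tested member probe sets outside the class I chains (861 pairs). The 15 share sequence and arrays, so they are not 15 separate measurements. The 2 unmarked class I heavy chain probe sets differed by -0.14 (HLA-E) and -0.084 (HLA-F) in the dimmer pair and by 0.56 and -0.24 on the brighter arrays. The part that array brightness or shared sequence has in this pattern was not tested.

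**Figure D3:**
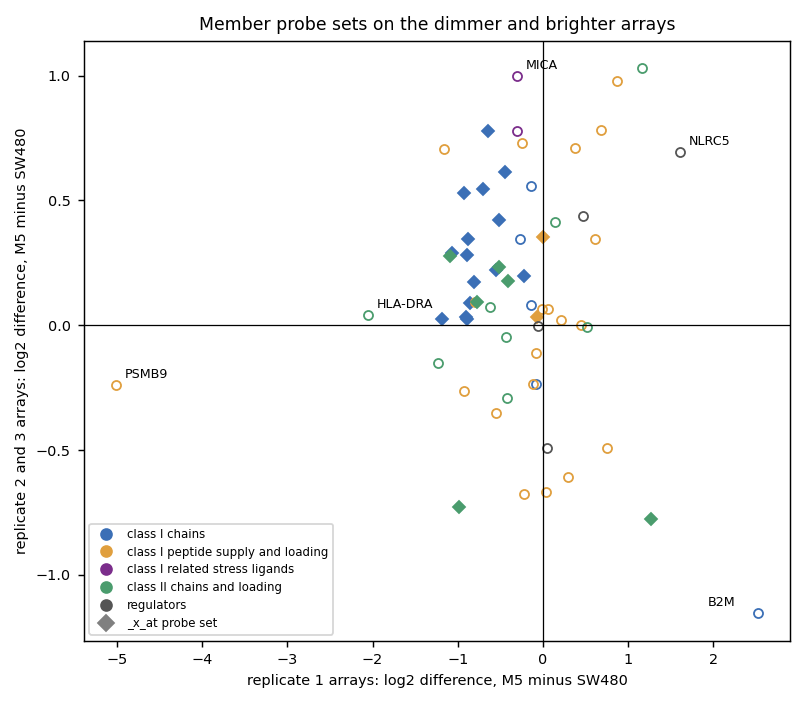
Log2 difference of M5 minus SW480 in the dimmer pair (horizontal axis) against that on the brighter arrays (vertical axis) for the 62 member probe sets above the filter, diamonds marking _x_at probe sets. The blue diamonds, the 15 marked class I HLA probe sets, all lie left of 0 and above 0, and PSMB9 stands at -5.02 and -0.24.

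Genes that supply and load class I peptides had 22 of 34 probe sets above the filter and a median log2 fold change of 0.018, with 11 above 0 and 11 below. TAP1, a subunit of the peptide transporter, read 219, 139 and 161 on SW480 and 125, 164 and 155 on M5, a log2 fold change of -0.20 (SE 0.25, adjusted p = 0.824 in limma). Its partner TAP2 (225973_at) read 78.7, 112 and 79.8 on SW480 and 66, 169.8 and 148 on M5. The replicate 1 arrays were the lowest of each population on this probe set, and the log2 fold change was 0.40 (SE 0.35, adjusted p = 0.743 in limma). On 204769_s_at they were the highest, with 40.2, 31.4 and 14.5 on SW480 and 65.4, 40.4 and 35.9 on M5. All 3 tested TAP2 probe sets had estimates above 0, up to 0.75. TAPBP, the bridge between transporter and class I molecule, read 219, 114 and 119 on SW480 and 114, 86.2 and 108 on M5. SW480 replicate 1 was again the highest array, and the log2 fold change was -0.49 (SE 0.30, adjusted p = 0.611 in limma). A second TAPBP probe set (1555565_s_at) had an estimate of 0.066.

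PSMB9 had the lowest estimate of the list. This immunoproteasome subunit lies next to TAP1 in the RefSeq annotation (GRCh38.p14). It read 105, 37.5 and 27.1 on SW480 replicates 1, 2 and 3 and 1.6, 20.6 and 34.6 on M5 replicates 1, 2 and 3. The highest array was SW480 replicate 1 and the lowest, near the floor of the scale, M5 replicate 1, while M5 replicate 3 lay inside the SW480 range. The log2 fold change was -1.83 (SE 0.80, adjusted p = 0.469 in limma), with an unadjusted p of 0.0416 in limma. Without M5 replicate 1 it was -0.81, and on the brighter arrays the difference was -0.24. PSMB10 read 149, 149 and 153 on SW480 and 141, 133 and 147 on M5. The M5 values were all below the SW480 values, by a margin that gave a log2 fold change of -0.10 (SE 0.21, adjusted p = 0.907 in limma). PSMB8 lay below the filter, with at most 1.12 on any array.

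Of the peptidases that trim peptides, ERAP1 had the highest estimate among the genes' probe sets of highest mean in this class. Its probe set 209788_s_at read 10.8, 10.1 and 17.1 on SW480 and 21.2, 23.3 and 32.9 on M5, with no overlap. The log2 fold change was 0.94 (SE 0.42, adjusted p = 0.475 in limma), and the unadjusted p in limma was 0.044. The 3 other tested ERAP1 probe sets gave 0.084, -0.42 and 0.43, so they differed in sign. All 5 ERAP2 probe sets and both TAPBPL probe sets lay below the filter, with at most 10.4 for ERAP2 and 6.05 for TAPBPL.

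The chaperones of class I loading also serve other glycoproteins. PDIA3, a disulfide isomerase of the loading complex, read 1311, 1434 and 1174 on SW480 and 1126, 774 and 851 on M5. Every M5 array lay below every SW480 array. The log2 fold change was -0.52 (SE 0.18, adjusted p = 0.388 in limma), with an unadjusted p of 0.0136 in limma, and the 2 other PDIA3 probe sets gave 0.040 and 0.15. CANX, which holds newly made heavy chains, read 1990.2, 2506 and 2098 on SW480 and 2039, 1457 and 1428 on M5. M5 replicates 2 and 3 lay below all SW480 arrays and M5 replicate 1 within their range. Its estimate was -0.43 (SE 0.17, adjusted p = 0.447 in limma), with an unadjusted p of 0.0295 in limma. The other tested CANX probe sets had estimates of -0.31, -0.20 and 0.085. CALR, the soluble relative of CANX, read 558, 434 and 609 on SW480 and 530, 511 and 541 on M5, a log2 fold change of -0.0034 (SE 0.18), and its 2 other probe sets gave -0.079 and 0.24.

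MICA and MICB are class I relatives that bind no peptide and are recognised by the NKG2D receptor of natural killer and T cells. MICA read 220.1, 133 and 164 on SW480 and 178, 315 and 281 on M5. M5 replicates 2 and 3 lay above every SW480 array, while M5 replicate 1 lay inside their range. This gave a log2 fold change of 0.56 (SE 0.28, adjusted p = 0.525 in limma). MICB read 272, 148 and 138 on SW480 and 221, 263 and 231 on M5, with SW480 replicate 1 the highest array and SW480 replicates 2 and 3 the lowest, a log2 fold change of 0.42 (SE 0.27, adjusted p = 0.637 in limma). Both showed the split of the marked class I chains, with differences of -0.31 and -0.30 in the dimmer pair and 1.0 and 0.78 on the brighter arrays. With no scaling between arrays the dimmer-pair differences of both were above 0, with a median of 0.107, against 0.302 over all tested probe sets.

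**Figure D4:**
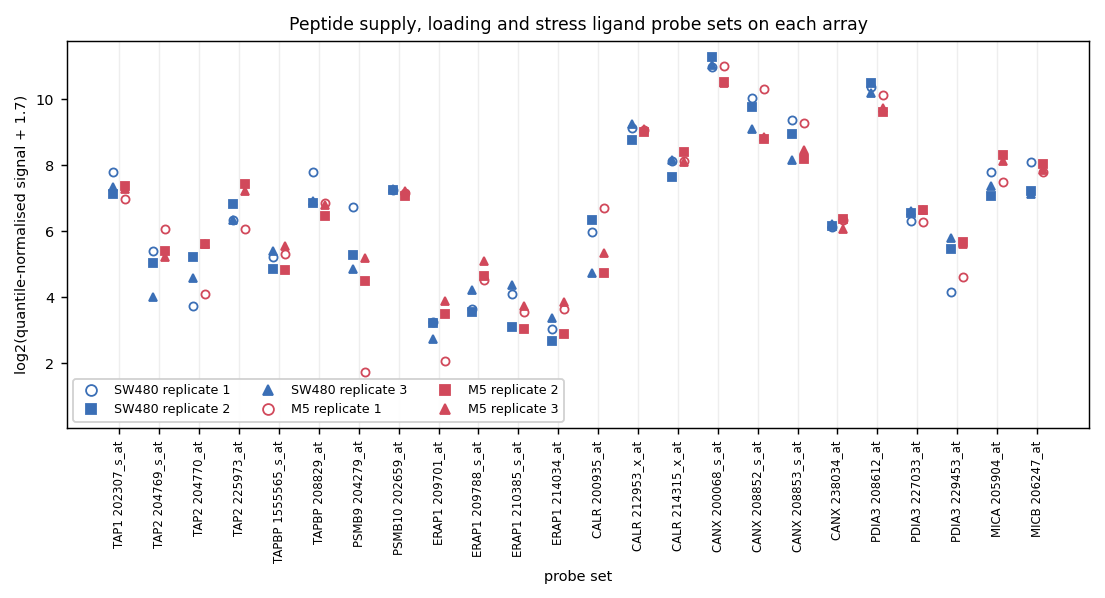
Log2(quantile-normalised signal + 1.7) on each of the 6 arrays for the 24 tested probe sets of peptide supply, loading and stress ligand genes (horizontal axis), blue for SW480, red for M5, open circles for the replicate 1 arrays. PSMB9 on M5 replicate 1 stands apart from the other arrays, and the M5 arrays lie below the SW480 arrays for PDIA3 208612_at.

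Probe sets of the 8 class II members had low signals, at most 75.4 on any array. Of their 24 probe sets 14 lay above the filter, at least 1 for each of the 8 genes, with a median log2 fold change of -0.17. None of the 14 had an unadjusted p under 0.05 in limma. HLA-DRA, the common chain of HLA-DR molecules, read 12, 14.6 and 19.1 on SW480 and 1.6, 19.3 and 15.4 on M5. Only M5 replicate 1 lay apart, and without it the log2 fold change of -0.66 (SE 0.69, adjusted p = 0.788 in limma) turned to 0.19. Its second probe set read at most 4.61. CD74, the invariant chain, read 11.2, 15.1 and 6.32 on SW480 and 3.8, 7.75 and 9.85 on M5 with probe set 209619_at, a log2 fold change of -0.51 (SE 0.58), while probe set 1567628_at gave 0.32 (SE 0.82). The CD74 probe sets thus differed in sign, and their populations overlapped.

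HLA-DMA and HLA-DMB, the chains of the peptide exchanger HLA-DM, were above the filter with their single probe sets. HLA-DMA read 40.6, 52.6 and 49.4 on SW480 and 25.8, 57 and 50.7 on M5, a log2 fold change of -0.16 (SE 0.36, adjusted p = 0.914 in limma). HLA-DMB read 75.4, 31.9 and 39.1 on SW480 and 55.8, 25.8 and 31.6 on M5, a log2 fold change of -0.33 (SE 0.41, adjusted p = 0.826 in limma). For HLA-DMB the replicate 1 array was the highest of each population. The peptide-binding chains HLA-DPA1 and HLA-DPB1 had log2 fold changes of -0.17 (SE 0.47) and 0.17 (SE 0.47). HLA-DPA1 read 25.1, 14.6 and 14.6 on SW480 and 18.2, 21.6 and 8.98 on M5, and HLA-DPB1 read 9.62, 22.5 and 23.3 on SW480 and 14.6, 28.9 and 17.9 on M5, with overlap in each case. HLA-DQB1 had 4 of 7 probe sets above the filter, all of them marked _x_at, with estimates from -0.82 to -0.018. The HLA-DQB1 probe set of highest mean read 38.7, 24.9 and 22.7 on SW480 and 22, 27.6 and 23.6 on M5, where SW480 replicate 1 stood above the rest. The unmarked HLA-DQB1 probe sets read at most 4.83.

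HLA-DOA encodes a chain of HLA-DO, the brake on HLA-DM. Its probe set 216946_at read 2.18, 6.17 and 3.85 on SW480 and 7.02, 15.6 and 8.83 on M5. The M5 arrays all lay above the SW480 arrays. The log2 fold change was 1.08 (SE 0.63, adjusted p = 0.597 in limma), the highest estimate of the 62. The 2 other tested HLA-DOA probe sets, both marked _x_at, gave -0.094 and -0.019, so the gene's probe sets did not show the same difference. HLA-DRB1, a gene of the related list for the class II route, read 101, 88.8 and 65.2 on SW480 and 36.7, 53.4 and 58 on M5 with a marked probe set, a log2 fold change of -0.77 (SE 0.31, adjusted p = 0.444 in limma). It was named after its values were seen and had the lowest estimate of the 10 tested genes of that list. The list's estimates ran up to 0.60, with a median of 0.14.

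Among the regulators, NLRC5 had the highest estimate. It read 6.85, 17.1 and 9.65 on SW480 replicates 1, 2 and 3 and 24.3, 16.5 and 29 on M5 replicates 1, 2 and 3. M5 replicates 1 and 3 lay above all SW480 arrays, and M5 replicate 2 just below SW480 replicate 2. This gave a log2 fold change of 1.0 (SE 0.47, adjusted p = 0.501 in limma), with an unadjusted p of 0.056 in limma, and differences of 1.60 in the dimmer pair and 0.69 on the brighter arrays. CIITA read 8.12, 11.2 and 9.85 on SW480 and 12, 18.2 and 12.1 on M5, without overlap, a log2 fold change of 0.45 (SE 0.47, adjusted p = 0.787 in limma), and its 2 other probe sets lay below the filter. RFX5 read 179, 224 and 269 on SW480 and 184, 175 and 173 on M5, a log2 fold change of -0.31 (SE 0.22, adjusted p = 0.674 in limma). The second RFX5 probe set gave -0.024 (SE 0.33).

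**Figure D5:**
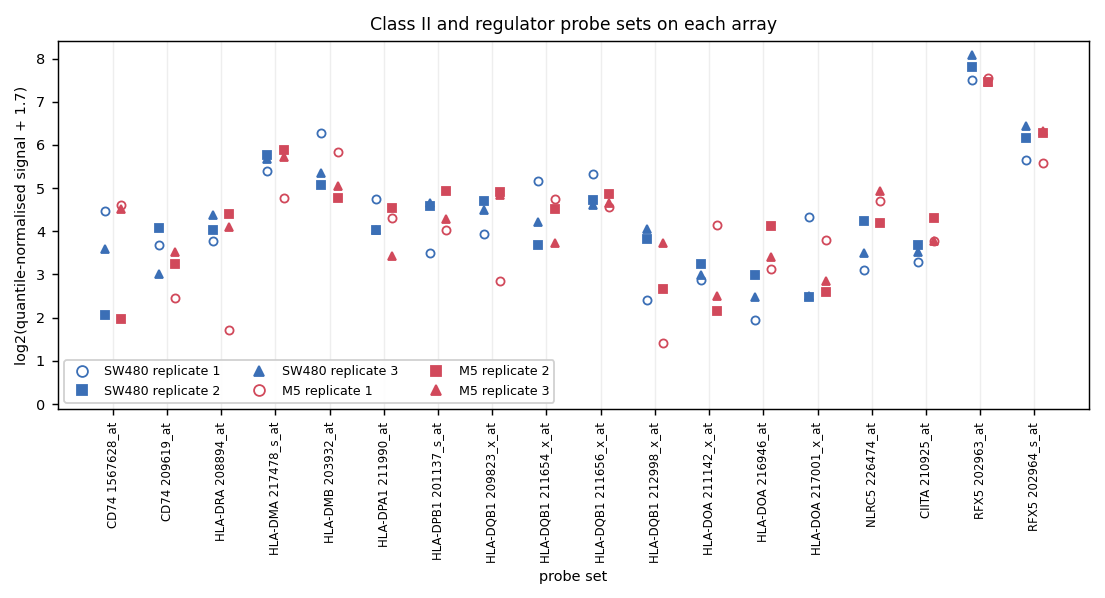
Log2(quantile-normalised signal + 1.7) on each of the 6 arrays for the 18 tested class II and regulator probe sets (horizontal axis), blue for SW480, red for M5, open circles for the replicate 1 arrays. The populations overlap for all but HLA-DOA 216946_at and CIITA 210925_at, which lie higher on the M5 arrays.

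The mark for shared sequence was found mainly on HLA probe sets. It was on 24 of the 86 member probe sets, 22 of them for HLA genes, and 23 of the 24 lay above the filter, against 39 of the 62 unmarked probe sets. The median log2 fold change was -0.062 for the marked and 0.040 for the unmarked. In the dimmer pair the medians were -0.77 and -0.080, and on the brighter arrays 0.22 and 0.041. Of the 23 marked probe sets above the filter, 15 are of class I HLA genes, so these medians mix the mark with the class. Of the 16 genes with more than a single tested probe set, 7 had estimates of the same sign on all of them and 9 did not. The 18 tested members on chromosome 6 had a median log2 fold change of -0.17, and the 10 on other chromosomes a median of 0.069.

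On the brighter arrays alone, 7 members passed the threshold. Of 61 member probe sets tested there, limma called 5 higher in M5 (8.2%) and 2 lower (3.28%), against 3.64% and 4.21% of all 32768 probe sets. MICA and MICB were higher, with log2 fold changes of 1.01 (SE 0.19, adjusted p = 0.0153 in limma) and 0.79 (SE 0.18, adjusted p = 0.0333 in limma). HLA-E (200905_x_at) had 0.62 (SE 0.13, adjusted p = 0.0262 in limma), HLA-F (204806_x_at) 0.78 (SE 0.15, adjusted p = 0.0173 in limma) and HLA-G (211528_x_at) 0.55 (SE 0.13, adjusted p = 0.0395 in limma). These 3 class I probe sets are marked _x_at. CANX and PDIA3 were lower, with -0.66 (SE 0.13, adjusted p = 0.0184 in limma) and -0.67 (SE 0.14, adjusted p = 0.0265 in limma). Once M5 replicates 2 and 3 were also averaged, 0 of the 61 were called in either direction, the smallest adjusted p in limma being 0.18, while 0.525% of all probe sets were called higher and 0.906% lower. At an unadjusted p under 0.05 that fit held 4 members higher and 2 lower, against 5.4% and 8.81% of all probe sets. The fold changes are the same in both fits, and the SE differs, for MICA 0.19 against 0.34. The spread in the averaged fit came from SW480 replicates 2 and 3, and the single remaining M5 value was taken to vary as they do. In the dimmer pair the probe sets of MICA, MICB, HLA-E, HLA-F and HLA-G named here had differences below 0 (-0.31, -0.30, -0.45, -0.64 and -0.70), PDIA3 had -0.22 and CANX 0.035.

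Genes around the pathway gave no call either. In 6 related lists, limma called 0 of 14 tested interferon-gamma signalling genes, 0 of 16 proteasome and activator genes, 0 of 10 genes of the endosomal class II route, 0 of 11 promoter factors, 0 of 10 folding genes of the endoplasmic reticulum and 0 of 3 further NKG2D ligands, where 0.0562% of 14243 genes were called higher and 0.0421% lower. At an unadjusted p under 0.05 in limma these lists held 0 genes higher and 1, 0, 1, 2, 4 and 0 lower, in that order, against 5.43% and 6.12% of all genes. Their median log2 fold changes were -0.15, 0.045, 0.14, -0.19, -0.38 and 0.47, against -0.009 over all genes. The interferon-gamma receptor chains IFNGR1 and IFNGR2 had log2 fold changes of 0.019 (SE 0.26) and -0.39 (SE 0.23), and their kinases JAK1 and JAK2 of -0.11 (SE 0.19) and -0.21 (SE 0.46). IRF1, the factor that interferon-gamma induces to act on class I promoters, read 72.5, 52.9 and 65.4 on SW480 and 69.8, 85.6 and 90.5 on M5, a log2 fold change of 0.36 (SE 0.27, adjusted p = 0.693 in limma).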

How the data were processed

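RNA of 3 SW480 and 3 M5 samples was measured on single-colour Affymetrix arrays. The authors deposited linear intensities per probe set, made with GCOS 1.4 per the submitters' processing notes (settings, any target level and build: not given in the sources used here). Trimmed means of arrays differed by up to 4.13 times, so they were quantile normalised, which gives every array the same distribution of values. Differences between arrays that affect some probe sets and not others can remain. The pseudocount of 1.7 is the 20th percentile of all deposited values. M5 was compared with SW480 by limma 3.58.1 in R 4.3.3 (lmFit, and eBayes with an intensity trend, two-sided), with Benjamini-Hochberg adjustment over all 32768 probe sets kept and a threshold of 0.05. The script was tested on data simulated for 6 arrays with the spread of these. There the fit called 67.1% of the 8-fold changes put in and 0% of the 2-fold changes. Genes are named from probe sets with a single symbol in the platform annotation, and the 4 probe sets that name a member beside other genes were left out. A gene is represented by its kept probe set of highest mean. Every member is named, and of the related lists each gene past the threshold and a few upstream genes; some genes of these lists are not analysed here. Marker lists for fibroblast, endothelial and hepatocyte genes had 6 of 8, 2 of 6 and 5 of 8 genes tested and 0 called in limma. At an unadjusted p under 0.05 in limma, COL3A1 of the fibroblast list had a log2 fold change of -1.31 and TTR of the hepatocyte list of 3.52 (at most 5.17 on SW480, and 195.7, 73.1 and 5.68 on M5), both named after their values were seen, and no other gene of these 3 lists passed it. The members, lists, tests and alternatives were chosen with earlier results of these data known. The alternatives changed the scaling, pseudocount (0.425 and 6.8), filter (none and 60%), variance model, blocks and arrays left out. The 18S block split the arrays by the signal of a ribosomal RNA control. Figures were drawn with matplotlib 3.10.9.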

Additional observations from a re-analysis of the deposited data

How the results depend on the processing

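The number of arrays limits the precision, and without detection calls signals near the pseudocount set no firm fold. In the fit of all 6 arrays 13 probe sets were higher and 11 lower, with 0 and 0 members, and the members' counts stayed at 0 in each direction except without the replicate 1 arrays (5 and 2). Probe sets higher numbered 0 without the intensity trend, 48 with the dim-array block and 2 with M5 replicates 2 and 3 averaged, and probe sets lower 1, 32 and 7. Those lower numbered 6 with no scaling and 20 with no filter. Without the replicate 1 arrays 1194 were higher and 1378 lower, and 172 and 297 once M5 replicates 2 and 3 were also averaged, an alternative chosen after seeing the data. Leaving out 1 array in turn gave 1 to 165 higher and 3 to 212 lower, and 0 members in each direction. What causes these shifts was not tested.

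Between samples of equal number, deviations from the group mean had correlations of 0.107, 0.0156 and 0.0707, so the numbers gave no clear pairing. Over the brightest 20% of tested probe sets, SW480 replicate 1 correlated at 0.951 with M5 replicate 1. There its r with the other SW480 arrays was 0.91 and 0.914, and that of M5 replicate 1 with the other M5 arrays 0.934 and 0.932. Over all tested probe sets SW480 replicate 1 had 0.895 with M5 replicate 1 and 0.89 and 0.899 with the other SW480 arrays. The replicate block gave 16 probe sets higher and 18 lower, and 0 members.

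No member passed the threshold with all 6 arrays, and in these alternatives the sign of a log2 fold change turned, to the value in parentheses. With no scaling between arrays it changed for HLA-C (0.053), HLA-F (0.092), CALR (0.18) and HLA-DOA (0.17). With arrays centred on the median it changed for CALR (0.060) and HLA-DOA (0.052). With the smaller pseudocount it changed for HLA-DOA (0.0067). With the 18S block it changed for HLA-F (0.19), HLA-DPB1 (-0.028) and HLA-DOA (0.31). With M5 replicates 2 and 3 averaged it changed for HLA-F (0.028) and HLA-DOA (0.16). Without the replicate 1 arrays it changed for HLA-B (0.025), HLA-C (0.036), HLA-F (0.35), TAP1 (0.094), CALR (0.033), HLA-DRA (0.044), HLA-DMA (0.075), HLA-DPB1 (-0.0079) and HLA-DQB1 (0.099). Without them and with M5 replicates 2 and 3 averaged it changed for HLA-B (0.025), HLA-C (0.036), HLA-F (0.35), TAP1 (0.094), CALR (0.033), HLA-DRA (0.044), HLA-DMA (0.075), HLA-DPB1 (-0.0079) and HLA-DQB1 (0.099). Leaving out 1 array in turn, the values ran from -0.39 to 0.53 for HLA-F, -0.15 to 0.10 for CALR, -0.65 to 0.017 for HLA-DMB, -0.40 to 0.16 for HLA-DPA1, -0.21 to 0.38 for HLA-DPB1, -0.32 to 0.028 for HLA-DQB1, -0.39 to 0.61 for HLA-DOA, -0.034 to 0.43 for HLA-G, -0.34 to 1.19 for CD74, -1.14 to 0.19 for HLA-DRA and -0.37 to 0.18 for HLA-DMA. Values that kept their sign but moved by over 1.5 times were those of HLA-B (-0.64 to -0.14), HLA-C (-0.42 to -0.017), HLA-E (0.050 to 0.60), B2M (0.021 to 0.25), TAP1 (-0.35 to -0.023), TAP2 (0.15 to 0.82), TAPBP (-0.66 to -0.19), PSMB9 (-2.52 to -0.81), PSMB10 (-0.13 to -0.062), MICB (0.24 to 0.73), CIITA (0.28 to 0.56) and RFX5 (-0.47 to -0.17). Other probe sets of the same gene had the opposite sign for HLA-F (0.31), HLA-G (-0.11), TAPBP (0.066), ERAP1 (-0.42), CALR (0.24), CANX (0.085), PDIA3 (0.040), PDIA3 (0.15), CD74 (-0.51) and HLA-DOA (1.08).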
